A study of Mus musculus with 26 samples.

Results

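The heavy-chain V genes IGHV11-1, IGHV11-2 and IGHV12-3 were followed through the antibody repertoires of 3 tissues, skin, spleen and lymph node, from wild-type mice that carried Staphylococcus epidermidis, a bacterium of healthy skin. They were chosen by name, as V genes known from B-1a cells, and every sequence assigned to one of them was taken from every library. These were 3 of the 188 V genes in the data and held 3317 of 1674869 clonotypes and 29381 of 4007742 copies. IGHV11-2 had 2113 of these clonotypes, IGHV12-3 had 1121 and IGHV11-1 had 83. A clonotype is 1 junction, by its nucleotides, with its V and J gene within a replicate, and a copy is 1 unit of the deposited count of a sequence. On chromosome 12 of GRCm38 the V segments lie at 113981879 to 113982174 for IGHV11-1, at 114048241 to 114048704 for IGHV11-2 and at 114366526 to 114366819 for IGHV12-3.

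The study sequenced B cell receptor heavy chains from bulk samples of 3 tissues, each with 4 biological replicates and 2 technical libraries per replicate. All 12 tissue replicates were labelled wild type with S. epidermidis association, so they held no group without the commensal. The 2 remaining libraries were a positive control of wild-type B cells with no tissue or treatment named. The tissue was read from the library titles, since the tissue field names ear skin also for libraries titled spleen and lymph node. Nothing in the labels states that replicates were separate mice, so p-values measure only the spread between these samples, which may be technical. The sequences carry no surface phenotype, so the name B-1a could not be checked on the cells themselves.

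B-1a cells are a self-renewing B cell population that arises largely early in life and makes much of the natural IgM of mice. Receptors that join IGHV11-2 or IGHV12-3 to IGHJ1 are textbook B-1a receptors, and many bind phosphatidylcholine, a lipid exposed on damaged cell membranes. Rearrangements made early in life carry few untemplated nucleotides, and the same junction can then arise in many animals.

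Depth differed widely between tissues. Libraries held 2215 to 4183 copies for skin, 79235 to 683759 for spleen, 44772 to 117512 for lymph node and 318201 to 327365 for the control. With the technical libraries added, a skin replicate held 275 to 350 clonotypes, a spleen replicate 25645 to 438995 and a lymph node replicate 27520 to 117561. Whether copies are molecular identifiers or reads is not stated in the tables, and intervals and limits below cover counting error only. In bulk samples, fewer cells of a type and less RNA per cell cannot be told apart.

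The junction, from the conserved cysteine to the conserved tryptophan, carries the identity of each receptor. The 4 amino acid junctions of IGHV11-2 that recurred most widely were each found in all 8 spleen and lymph node replicates and in 1 skin replicate. They are shown because they held 42.2% or more of IGHV11-2 copies in each of these 8 replicates. Each line gives the amino acid junction and its most frequent nucleotide form, 5′ to 3′, with capitals for the bases between the V end and the J end that most clonotypes of the gene share.

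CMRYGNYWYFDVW: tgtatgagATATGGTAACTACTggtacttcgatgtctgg
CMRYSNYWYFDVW: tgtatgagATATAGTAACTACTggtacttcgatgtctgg
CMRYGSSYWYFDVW: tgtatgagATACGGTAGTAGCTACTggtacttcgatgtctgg
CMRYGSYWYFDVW: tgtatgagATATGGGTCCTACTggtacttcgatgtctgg

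The V end tgtatgag was found in 83.1% of IGHV11-2 clonotypes and the J end ggtacttcgatgtctgg in 78.7% of those with IGHJ1. For IGHV12-3, the 3 most widely found junctions are shown as the counterpart, with the V end tgtgcaggag present in 87.1% of its clonotypes. The first and second of them end in IGHJ1 and the third in IGHJ4.

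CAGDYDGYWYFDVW: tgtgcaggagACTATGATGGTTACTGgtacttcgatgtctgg
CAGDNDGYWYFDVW: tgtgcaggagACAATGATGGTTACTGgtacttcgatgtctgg
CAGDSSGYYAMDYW: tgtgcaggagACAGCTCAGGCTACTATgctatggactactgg

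For IGHV11-1, the most copied junction is shown in full, without capitals, since too few clonotypes defined its ends.

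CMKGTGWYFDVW: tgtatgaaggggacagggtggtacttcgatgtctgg

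IGHV11-2 made up a small part of the clonotypes in every tissue. It made up 1.14%, 0.625%, 0.311% and 0% of clonotypes in skin replicates 1 to 4, from 4, 2, 1 and 0 clonotypes. In spleen replicates 1 to 4 it made up 0.168%, 0.0822%, 0.0965% and 0.0709%, from 43, 361, 216 and 216 clonotypes. In lymph node it made up 0.138%, 0.0970%, 0.0919% and 0.117%, from 38, 114, 48 and 113 clonotypes. The 3 skin replicates that held the gene lay above every spleen and lymph node replicate, while skin replicate 4 held none. Depth fixed this order, since a skin replicate held 275 to 350 clonotypes. A single clonotype there, as the 0.311% of skin replicate 3, already lies above the 0.168% of spleen replicate 1. The 0 of 275 clonotypes there allows a share of up to 1.09%, which is above the values of both other tissues.

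Skin averaged 0.520% ± 0.488 (SD, n = 4), spleen 0.104% ± 0.0435 and lymph node 0.111% ± 0.0211. Pooled over skin, 7 of 1267 clonotypes were IGHV11-2, or 0.552% with an exact 95% binomial interval of 0.222% to 1.14%. The control held 957 IGHV11-2 clonotypes, or 0.247% (exact interval 0.232% to 0.263%).

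The edgeR quasi-likelihood test put IGHV11-2 clonotypes 2.31 log2 units higher in skin than in spleen (SE 0.782), with a Benjamini-Hochberg adjusted p of 0.0781 over the 91 V genes tested, above the threshold of 0.05. Against lymph node the difference was 2.20 (SE 0.777, edgeR adjusted p = 0.118), and between spleen and lymph node it was -0.11 (SE 0.375, adjusted p = 0.878). No tested member passed in any of these comparisons (0 of 2, since IGHV11-1 was removed by the filter on low counts). Of all tested V genes, 7.69% were called for skin against spleen (4.4% higher in skin and 3.3% lower), 0% for skin against lymph node and 22% for spleen against lymph node (7.69% higher in spleen and 14.3% lower). For skin against lymph node, edgeR called 0 of 91 genes, and 17 had an unadjusted p under 0.05. DESeq2, which tested 151 genes there, called 37. The median difference over all 91 V genes was -0.28, -0.19 and -0.12 in the same order.

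The skin comparisons rested on 7 clonotypes and moved with single libraries. Without skin replicate 1, which held 4 of them, the skin to spleen difference was 1.34 (edgeR adjusted p = 0.443) and the skin to lymph node difference 1.31 (adjusted p = 0.487). Without skin replicate 4, the difference from spleen was 2.60 and passed (edgeR adjusted p = 0.0357). DESeq2 called the gene higher in skin than in spleen (2.63, adjusted p = 0.00116) and lymph node (2.56, adjusted p = 0.00308). The same DESeq2 fit also called IGHV11-1 higher in skin (3.69 and 3.26), where it had 0 clonotypes. Its skin calls for genes with few clonotypes are thus not reliable. When copies replaced clonotypes, edgeR put the gene lower in skin, at -0.86 against spleen and -1.17 against lymph node, neither past the threshold (adjusted p = 0.628 and 0.484).

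By copies, the order of the tissues differed. IGHV11-2 held 0.541%, 0.0667%, 0.161% and 0% of skin copies, 0.220%, 0.535%, 0.610% and 0.165% of spleen copies, and 0.693%, 0.849%, 0.530% and 0.237% of lymph node copies. The control held 0.999%, with 0.804% and 1.19% in its 2 technical libraries. The ranges of the 3 tissues overlapped, with skin means of 0.192% ± 0.242 (SD, n = 4), spleen 0.383% ± 0.223 and lymph node 0.577% ± 0.262.

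Outside skin, IGHV11-2 had a high mean number of copies per clonotype, carried by a few large clonotypes. It held 11.7 ± 6.48 (SD, n = 4) copies per clonotype in spleen and 13.04 ± 5.87 in lymph node, against 3.43 ± 1.98 and 2.48 ± 0.622 for all other V genes. Over both tissues its 12.4 copies per clonotype ranked 1 of 102 V genes, ahead of IGHV7-1 at 6.82 and a median of 2.496. In spleen replicate 2 the 3 largest of 361 clonotypes had 4146, 1268 and 642 of 7289 copies. Clonotypes of a single copy were 39.5% to 79.8% of the gene's clonotypes across the spleen replicates and 42.1% to 68.1% across lymph node. In skin the 3 replicates with the gene averaged 5.92 copies per clonotype, below the 18.7 of other V genes there. The gene was all IgM in skin, while the 18.7 covers all isotypes. Skin IgA of other V genes had 13844 copies and 315 clonotypes, and their IgM 7247 copies and 729 clonotypes.

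**Figure D1:**
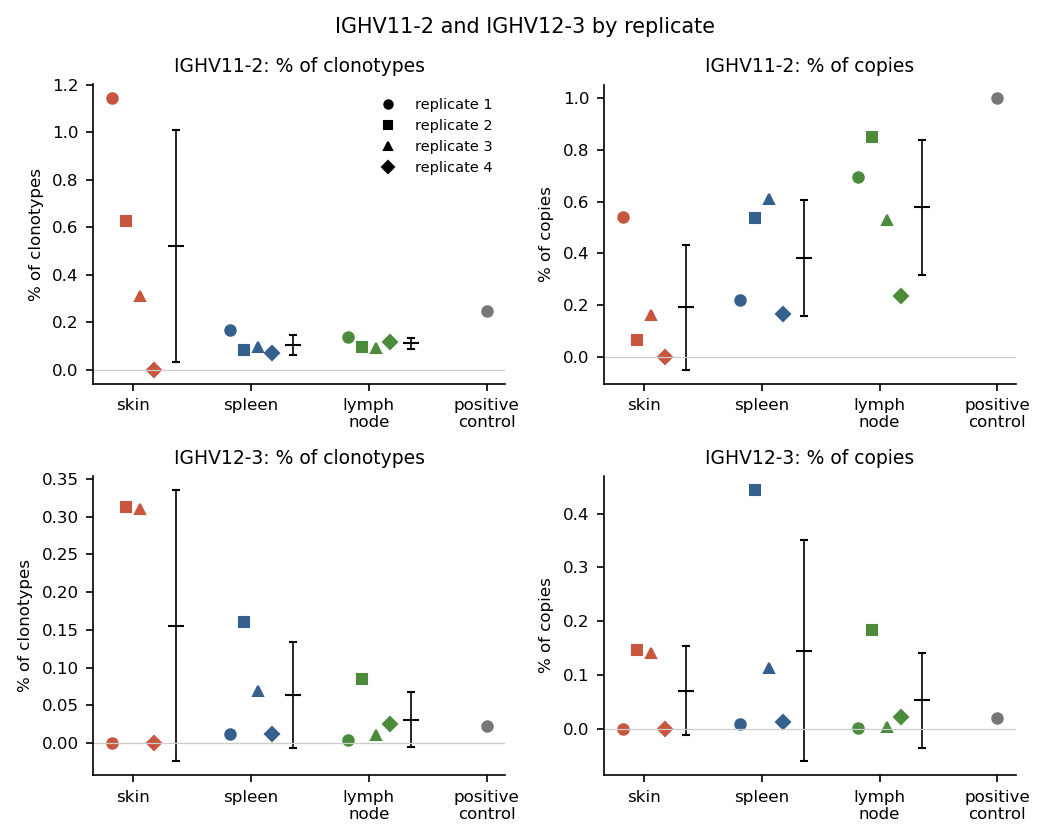
Share of clonotypes (percent, left) and of copies (percent, right) of IGHV11-2 and IGHV12-3 in every replicate of skin, spleen, lymph node and the positive control; symbols are replicates, and bars are the mean and SD over 4 replicates. IGHV11-2 lies at 0.0709% to 0.168% of clonotypes in spleen and lymph node and at 0% to 1.14% in skin. Within spleen and within lymph node, IGHV12-3 is highest in replicate 2. Its skin clonotype shares in replicates 2 and 3, from 1 clonotype each, lie above these.

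IGHV12-3 varied far more between replicates than IGHV11-2. Skin replicates 2 and 3 held 1 clonotype each and replicates 1 and 4 none, so 2 of 1267 skin clonotypes (0.158%) used the gene. Spleen replicates 1 to 4 held 3, 703, 156 and 38 clonotypes, or 0.0117%, 0.160%, 0.0697% and 0.0125%. Lymph node replicates held 1, 100, 6 and 24, or 0.00363%, 0.0851%, 0.0115% and 0.0249%. Replicate 2 was the highest in both tissues, and the tissues overlapped. The control held 88 clonotypes (0.0227%).

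No IGHV12-3 difference passed the edgeR test. The log2 difference was 1.16 (SE 2.31, adjusted p = 0.779) for skin against spleen, 2.06 (SE 2.50, adjusted p = 0.674) for skin against lymph node and 0.89 (SE 0.719, adjusted p = 0.404) for spleen against lymph node. Replicate 2 decided the last value: it was -0.071 without spleen replicate 2 and 2.34 without lymph node replicate 2. By copies, spleen replicates held 16, 6054, 520 and 96 IGHV12-3 copies and lymph node replicates 2, 422, 6 and 50. Clonotypes of spleen replicate 2 averaged 8.61 copies each, with the largest, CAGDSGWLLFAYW, at 554 copies.

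IGHV11-1, a close relative of IGHV11-2, was the rarest of the 3 genes. Skin held 0 of 1267 clonotypes, which allows a share of up to 0.237%. Spleen replicates held 2, 17, 13 and 18 clonotypes and lymph node replicates 3, 11, 2 and 6. Its mean share was 0.00585% ± 0.00160 (SD, n = 4) in spleen and 0.00758% ± 0.00316 in lymph node, and the control held 11 clonotypes. Without the filter on low counts, edgeR gave a spleen to lymph node difference of -0.30 (adjusted p = 0.693).

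Most of its copies in the tissues came from replicate 4. The junction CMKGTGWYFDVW had 68 copies in spleen replicate 4, 40 labelled IgM and 28 IgA, and 21 copies in lymph node replicate 4, all IgM. Of 66 IGHV11-1 amino acid junctions, 9 were also found with IGHV11-2, or 13.6% of the IGHV11-1 junctions and 0.986% of the 913 of IGHV11-2. Because the genes are alike, an IGHV11-1 sequence with a recurrent IGHV11-2 junction may be an assignment error, which was not tested.

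A list of other V genes described in natural antibody repertoires was tested in the same fit. Of IGHV1-53, IGHV1-55, IGHV6-6, IGHV7-1 and IGHV2-9, 0 of 5 passed the edgeR test in any comparison. The nearest was IGHV1-55, at 0.74 for spleen against lymph node (adjusted p = 0.0607).

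IGHV11-2 was joined mostly to IGHJ1. In spleen 58.6% ± 9.01 (SD, n = 4) of its clonotypes used IGHJ1, with 53.2% the lowest and 72.1% the highest replicate. In lymph node it was 61.2% ± 3.35, from 58.3% to 64.9%. Other V genes used IGHJ1 in 20.6% ± 0.519 and 19.5% ± 0.314 of clonotypes, so every IGHV11-2 value lay far above that of the other genes. Here and below, values of other V genes come from the same replicates and stand beside the member's as a description, with no test of the difference. The rest of the IGHV11-2 clonotypes used IGHJ2 (20.9% in spleen, 17.4% in lymph node), IGHJ4 (11.9% and 17.3%) and IGHJ3 (8.57% and 4.04%).

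Over spleen and lymph node its IGHJ1 share of 59.9% ranked 1 of 102 V genes, ahead of IGHV15-2 at 50.1%, with a median of 19.6%. In the control 68.2% of IGHV11-2 clonotypes used IGHJ1 against 12.0% for other V genes. By copies the preference was stronger, at 88.5% ± 5.43 in spleen and 93.2% ± 5.85 in lymph node. Spleen and lymph node differed by -2.57 percentage points in the clonotype share (exact two-sided permutation test over 70 arrangements, p = 0.629, adjusted 0.629, smallest possible p 0.0286).

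The preference was smaller when related junctions were counted once. Within a replicate, a lineage joined clonotypes that used equal V and J genes, had junctions of equal length and were at least 85% identical in junction nucleotides. By lineages the IGHJ1 share was 35.4% ± 6.08 (SD, n = 4) for spleen and 36.2% ± 2.12 for lymph node, against 17.3% ± 1.05 and 17.8% ± 0.274 for other V genes. IGHV11-2 then ranked 2 of 99, with 35.8% between IGHV15-2 at 43.0% and IGHV5-2 at 34.4%. IGHV11-2 clonotypes with IGHJ1 thus fell into fewer groups of like junctions than those with other J genes.

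IGHV12-3 used IGHJ1 less often. Its clonotype share was 37.4% ± 4.24 (SD, n = 4) in spleen and 28.8% ± 20.9 in lymph node, where 2 replicates held 6 or fewer clonotypes. IGHJ3 (28.0% and 45.3%) and IGHJ4 (28.4% and 16.9%) took most of the rest. By lineages the IGHJ1 share was 27.7% ± 4.81 and 24.8% ± 17.4. In the control 62.5% of IGHV12-3 clonotypes used IGHJ1. IGHV11-1 used IGHJ1 in 18 of 50 spleen and 10 of 22 lymph node clonotypes.

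**Figure D2:**
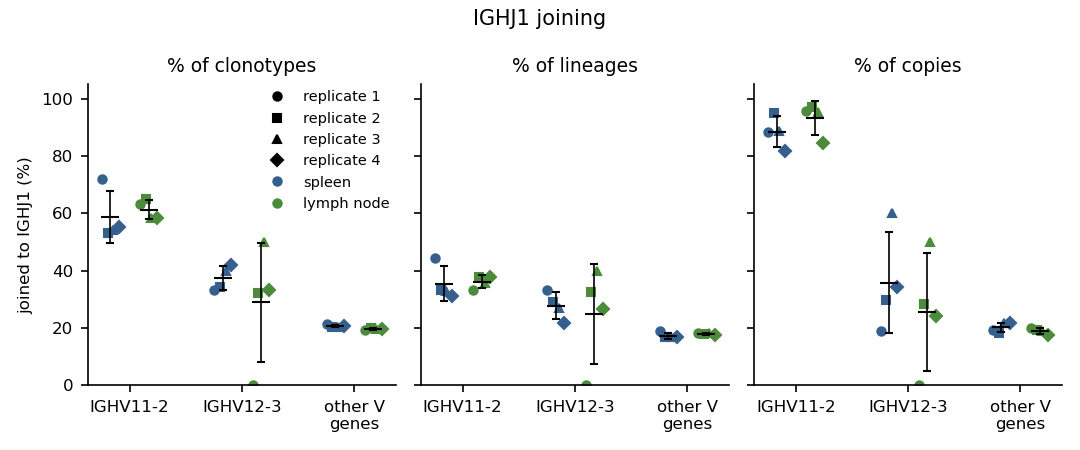
Percent of clonotypes, lineages and copies joined to IGHJ1, for IGHV11-2, IGHV12-3 and all other V genes; symbols are spleen and lymph node replicates, and bars are the mean and SD over 4 replicates. IGHV11-2 lies at 53.2% to 72.1% by clonotypes and at 31.1% to 44.4% by lineages, above the other V genes in each.

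The same few IGHV11-2 junctions held a large part of the gene's copies in every spleen and lymph node replicate. The 4 junctions shown above together held 52.4%, 84.3%, 78.7% and 49.3% of IGHV11-2 copies in spleen replicates 1 to 4 and 80.5%, 79.1%, 88.1% and 42.2% in lymph node. These are means of 66.2% ± 17.9 (SD, n = 4) and 72.5% ± 20.5, and the tissues overlapped. They were only 3.32% to 21.1% of the clonotypes. In the control they held 19.5% of copies. Among 913 IGHV11-2 amino acid junctions, 73 (8.00%) were in 2 or more of the 12 tissue replicates and 840 in 1.

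Pooled over the tissue replicates, each of the 3 leading junctions was almost all 1 nucleotide form, and the fourth was not. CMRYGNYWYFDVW had 4239 copies in 11 nucleotide forms, of which the form shown above held 98.5%. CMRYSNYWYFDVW had 5737 copies in 7 forms, with 99.7% in the form shown, and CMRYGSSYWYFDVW had 1657 copies in 7 forms, with 98.97%. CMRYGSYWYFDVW had 326 copies in 11 forms, and the most frequent form held 13.5% and was found in 3 replicates. Each of the first 3 had the same leading form in all 8 spleen and lymph node replicates, though in small counts other forms took a larger part, as with 4 of 6 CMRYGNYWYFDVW copies in that form in spleen replicate 1 and 9 of 12 in lymph node replicate 1. The fourth had different leading forms in different replicates.

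Which junction led differed between replicate numbers. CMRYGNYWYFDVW held 1.68%, 18.0%, 52.6% and 20.7% of IGHV11-2 copies in spleen replicates 1 to 4 and 1.86%, 35.5%, 62.2% and 19.96% in lymph node replicates 1 to 4. It was lowest in replicate 1 and highest in replicate 3 of both tissues. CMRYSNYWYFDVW held 19.6%, 57.0%, 8.96% and 20.3% in spleen and 28.5%, 34.9%, 14.7% and 13.8% in lymph node, highest in replicate 2 of both. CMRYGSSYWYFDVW held 28.6%, 8.81%, 10.2% and 4.02% in spleen and 49.4%, 8.42%, 9.17% and 7.75% in lymph node, highest in replicate 1 of both. In the control these 3 held 14.2%, 0.171% and 4.43%, and the largest control clonotype carried another IGHJ1 junction, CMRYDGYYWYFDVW.

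Such sharing was rare among other V genes. Of 1191126 combinations of V gene, J gene and amino acid junction, 8 were found in all 8 spleen and lymph node replicates, and 4 of these were the IGHV11-2 junctions. That is 50% of the shared set from a gene with 0.0768% of all junctions. At the nucleotide level 5 of 1262882 were in all 8, and 3 of them were IGHV11-2. Junctions found in all 8 held 69.3% of IGHV11-2 copies, the highest of 102 V genes, followed by IGHV7-1 at 51.7%, with a median of 0.

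**Figure D3:**
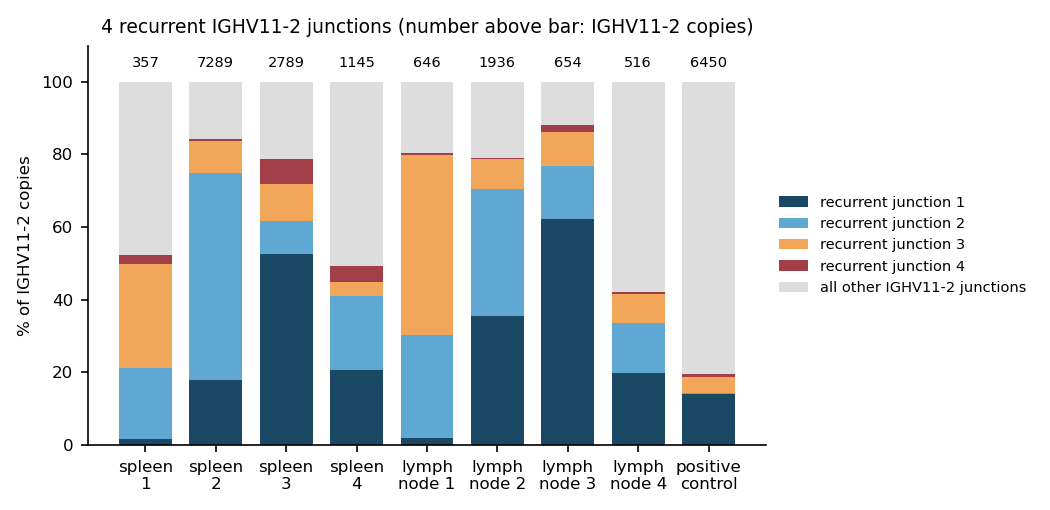
Percent of the IGHV11-2 copies of each spleen, lymph node and control replicate held by each of the 4 most widely found junctions, numbered in the order of the printed sequences, and by all other junctions, as stacked bars from 0 to 100 with the number of copies above. The 4 junctions hold 42.2% to 88.1% in spleen and lymph node and 19.5% in the control.

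IGHV12-3 junctions were found in fewer replicates, and many had a common form. The fewest clonotypes in a spleen or lymph node replicate were 1 for IGHV12-3 and 38 for IGHV11-2. Recurrence over many replicates could thus hardly be seen for IGHV12-3, and the 2 genes cannot be compared in it. Of 826 amino acid junctions, 48 (5.81%) were in 2 or more tissue replicates and none in more than 4. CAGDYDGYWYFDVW was in 4 replicates with 49 copies, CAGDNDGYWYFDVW in 4 with 13 copies and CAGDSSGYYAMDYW in 3 with 45 copies. All 3 have the form called 10/G4, known from phosphatidylcholine-binding IGHV12 receptors, with 10 residues between the framework ends and glycine at position 4 of them. The form was counted as a 14-residue junction with glycine at junction position 7, and was looked at with this literature known.

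In spleen replicates 1 to 4, 66.7%, 33.7%, 50% and 55.3% of IGHV12-3 clonotypes had this form, and in lymph node 100%, 48%, 50% and 62.5%. The means were 51.4% ± 13.7 (SD, n = 4) and 65.1% ± 24.1, against 2.40% and 2.17% for other V genes, and the control reached 94.3%. By lineages the form made up 31.6% ± 24.2 in spleen and 56.9% ± 31.7 in lymph node, with 11.3% the lowest, in spleen replicate 2, still above the 2.03% and 2.08% of other V genes. The form was not confined to IGHJ1. In spleen and lymph node together it was found in 49 of 66 IGHJ2 clonotypes (74.2%), 192 of 363 with IGHJ1 (52.9%), 84 of 289 with IGHJ3 (29.1%) and 80 of 313 with IGHJ4 (25.6%). IGHJ1 made up 50%, 51.5%, 43.6% and 57.1% of it in spleen replicates 1 to 4, against 0%, 25.5%, 35.9% and 23.5% of other forms. In lymph node replicates 2 to 4 the IGHJ1 share was 31.25%, 33.3% and 46.7% against 32.7%, 66.7% and 11.1%. Spleen replicate 1 held 3 IGHV12-3 clonotypes and lymph node replicate 3 held 6.

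Junction length was restricted in both genes. Junctions of 13 or 14 residues made up 54.8% ± 10.97 of IGHV11-2 clonotypes in spleen and 63.9% ± 18.8 in lymph node, and 68.9% ± 4.64 and 85.5% ± 14.1 of IGHV12-3 clonotypes (SD, n = 4). Other V genes had 29.2% and 28.7%. The SD of the IGHV12-3 junction length, 1.49 residues, was the second lowest of 102 V genes.

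By clonotypes, IGHV11-2 was mostly IgM, like the repertoire around it. IgM made up 76.7%, 77.0%, 88.0% and 78.7% of clonotypes in spleen and 73.7%, 78.1%, 83.3% and 77.0% in lymph node. The tissues overlapped and differed by 2.09 percentage points (exact two-sided permutation test, p = 0.571, adjusted 0.629). Other V genes had 72.9% ± 7.98 (SD, n = 4) and 79.5% ± 1.66. IgD made up 13.2% ± 4.53 and 18.5% ± 4.07, IgA 3.75% ± 1.92 and 1.11% ± 2.21, and IgG2 1.60% and 1.76% of IGHV11-2 clonotypes. IgA of other V genes was 7.62% ± 3.64 in spleen and 0.524% ± 0.169 in lymph node. In the control 84.6% of IGHV11-2 clonotypes were IgM against 57.2% for other V genes.

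By copies, IgA of IGHV11-2 lay below that of other V genes in 3 of 4 spleen replicates and above it in the other. It was 1.68%, 71.5%, 4.27% and 13.01% of IGHV11-2 copies in spleen replicates 1 to 4, 0%, 0%, 0% and 7.95% in lymph node and 52.7% in the control. Other V genes had 30.8%, 30.3%, 28.8% and 35.3% in spleen, 1.23%, 1.08%, 1.80% and 5.26% in lymph node and 11.9% in the control. Without the largest clonotype of each replicate, the spleen values were 2.34%, 34.0%, 8.99% and 16.4%, and the control value was 17.1%.

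These copy values rest on few isotype labels. Within a library each distinct sequence nearly always carries 1 isotype, and 283 of 2094247 distinct sequences had more. Of the IGHV11-2 clonotypes with 300 or more copies in a library, 87.5% were a single sequence, against 27.9% over all V genes. In spleen replicate 2, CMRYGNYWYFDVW was labelled IgM with 614 copies in 1 technical library and IgA with 654 copies in the other. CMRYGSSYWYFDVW was IgA with 311 copies and IgM with 331, and in the control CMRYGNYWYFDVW was IgM with 330 and IgA with 533. Only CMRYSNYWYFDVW was IgA in both libraries of spleen replicate 2, with 1947 and 2199 copies on 1 sequence each. Among clonotypes with 100 or more copies in both technical libraries, the leading isotype differed between them in 3 of 14 IGHV11-2, 3 of 7 IGHV12-3 and 212 of 1227 (17.3%) other clonotypes. The part of this labelling in the IgA shares was not tested.

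IGHV12-3 carried IgG2 in more of its clonotypes than other V genes did in every spleen and lymph node replicate with over 6 of its clonotypes. In the control the order was opposite, with IgG2 at 6.82% of its 88 clonotypes against 24.9% for other V genes. IgG2 made up 0%, 33.6%, 15.4% and 2.63% of its clonotypes in spleen replicates 1 to 4, against 3.39%, 3.60%, 0.768% and 1.07% for other V genes. In lymph node it was 0%, 13%, 0% and 8.33% against 1.36%, 2.10%, 1.64% and 1.22%. The replicates at 0% held 3, 1 and 6 IGHV12-3 clonotypes. The other values rest on 236 of 703, 24 of 156 and 1 of 38 clonotypes in spleen and 13 of 100 and 2 of 24 in lymph node. The 703 clonotypes of spleen replicate 2 fell into 159 lineages, and IgG2 was not counted by lineage. In spleen replicate 2, 42.4% of its 703 clonotypes were IgM, 33.6% IgG2, 7.54% IgG1, 6.97% IgD, 5.12% IgA and 4.41% IgG3. The IgM share was 66.7%, 71.8% and 71.1% in the other spleen replicates and 0%, 61%, 83.3% and 70.8% in lymph node, the 0% from 1 clonotype labelled IgD. In spleen replicate 2, 43.0% of 10/G4 clonotypes were switched against 54.5% of the others. IGHV11-1 was IgM in 33 of 50 spleen and 13 of 22 lymph node clonotypes, with 8 of 50 and 8 of 22 IgD.

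**Figure D4:**
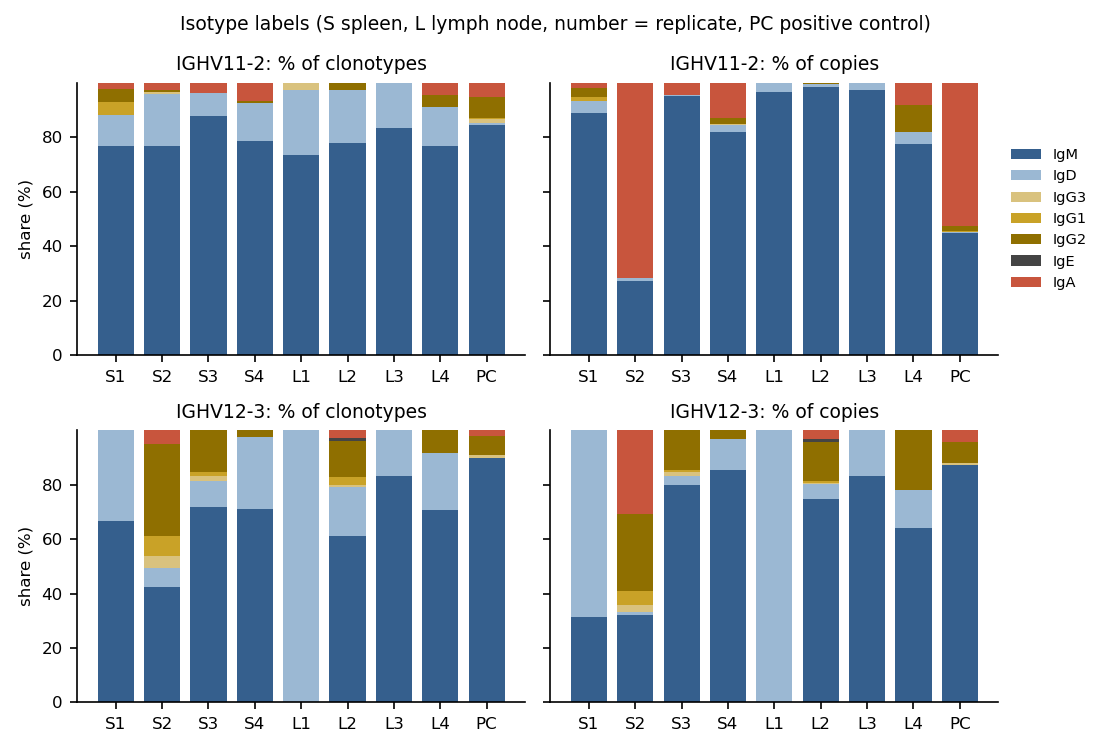
Percent of clonotypes (left) and of copies (right) by isotype for IGHV11-2 and IGHV12-3 in each spleen (S), lymph node (L) and control (PC) replicate, as stacked bars. IgM leads by clonotypes in every bar but lymph node replicate 1 of IGHV12-3, which holds 1 clonotype, while by copies IgA reaches 71.5% of IGHV11-2 in spleen replicate 2 and 52.7% in the control.

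IGHV11-2 carried fewer V mismatches than the average gene. Mismatches are given as the percentage of aligned V nucleotides that differ from the germline call, averaged over clonotypes. They were 0.420%, 0.407%, 0.323% and 0.252% in spleen and 0.329%, 0.377%, 0.211% and 0.349% in lymph node, against 0.845% ± 0.214 (SD, n = 4) and 0.548% ± 0.0569 for other V genes. The tissues overlapped and differed by 0.0338 percentage points (exact two-sided permutation test, p = 0.543, adjusted 0.629). Over both tissues IGHV11-2, at 0.333%, ranked 20 from the lowest of 102 V genes, so 19 genes were lower. The control had 0.621% against 1.33% for other V genes. In spleen and lymph node the aligned V stretch had a median of 144 to 146 nucleotides for the sequences of the 3 genes. The IGHV11-1 and IGHV12-3 segments span 296 and 294 bases, so mismatch values here and below cover part of V only.

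The lower values were also seen within IgM and within IgA. IgM clonotypes of IGHV11-2 had 0.316% ± 0.0786 in spleen and 0.321% ± 0.0679 in lymph node, against 0.583% ± 0.0912 and 0.498% ± 0.0477 for other V genes (SD, n = 4). The 32 IgA clonotypes of spleen had 0.537% ± 0.410 against 3.25% ± 0.162. Spleen replicates 1 to 4 held 1, 9, 8 and 14 of them, with 0.233%, 1.14%, 0.398% and 0.374%. Some large unmutated clonotypes changed isotype label between technical libraries, as given above, and the part of this in these values was not tested. The 11 IgG clonotypes of spleen had 1.46% ± 1.18 (n = 3) against 2.04%. The share of unmutated clonotypes was 58.9% ± 10.4 and 52.3% ± 3.79 for IGHV11-2 against 58.0% and 59.9% for other V genes.

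The recurrent junctions were largely unmutated in the aligned part of V. Unmutated copies made up 66.7% to 99.9% of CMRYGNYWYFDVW, 80.3% to 99.9% of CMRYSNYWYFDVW and 77.5% to 100% of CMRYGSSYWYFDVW across spleen and lymph node. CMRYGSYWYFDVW ranged from 0% to 100%, and 0 of 50 copies in spleen replicate 4 and 0 of 4 in lymph node replicate 4 were unmutated. Replacement mismatches were 70.02% of IGHV11-2 mismatches in spleen and 68.3% in lymph node.

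IGHV12-3 mismatches were 0.0825%, 0.742%, 0.236% and 0.186% in spleen and 0.342%, 0.444%, 0% and 0.320% in lymph node. The tissues overlapped, and replicate 2 was the highest in each. In spleen replicate 2 the 10/G4 clonotypes had 0.470% and the others 0.881%. IGHV11-1 had 0.287% ± 0.127 (SD, n = 4) in spleen and 0.257% ± 0.192 in lymph node.

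**Figure D5:**
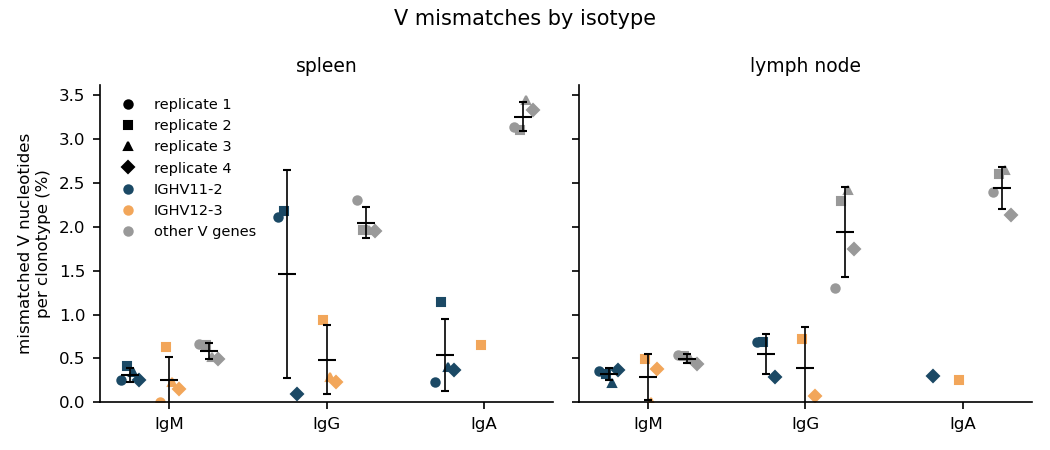
Percent of mismatched V nucleotides, averaged over the clonotypes of an isotype, for IGHV11-2, IGHV12-3 and all other V genes in spleen and lymph node; symbols are replicates, and bars are the mean and SD where more than 1 replicate had a value. IgA of spleen averages 0.537% for IGHV11-2 and 3.25% for other V genes, while the IgG values of IGHV11-2 in spleen spread from 0.101% to 2.17%. The IgA values of IGHV11-2 in spleen replicates 1 to 4 rest on 1, 9, 8 and 14 clonotypes.

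Skin held 9 clonotypes of these genes in all. All 9 used IGHJ1 and all 11 of their sequences were IgM, against 20.5% IGHJ1 among skin IgM clonotypes and 57.5% ± 6.92 (SD, n = 4) IgM among skin clonotypes of other V genes. In the aligned part of V, 9 of the 11 sequences had no mismatch. Each clonotype was seen in 1 of the 2 technical libraries only (0 of 9 in both, against 5.45% of all skin clonotypes).

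Skin replicate 1 held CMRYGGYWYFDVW with 14 copies, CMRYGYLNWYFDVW with 8, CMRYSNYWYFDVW with 6 and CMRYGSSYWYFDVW with 1. Skin replicate 2 held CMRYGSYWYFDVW with 4 copies, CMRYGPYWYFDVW with 1 and the IGHV12-3 junction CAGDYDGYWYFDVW with 11. Skin replicate 3 held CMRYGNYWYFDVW with 8 copies and the IGHV12-3 junction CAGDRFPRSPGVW with 7. Skin replicate 4 held none.

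Most of these also occurred in the other tissues. By V gene, J gene and nucleotide junction, 7 of the 9 were found in spleen or lymph node, against 14.4% of all skin clonotypes and 7.59% of the 738 skin IgM clonotypes. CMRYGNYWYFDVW, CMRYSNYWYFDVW and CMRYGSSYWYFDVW were in all 8 replicates. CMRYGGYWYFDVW of skin replicate 1 was in spleen and lymph node replicate 1 and the control, but in no other spleen or lymph node replicate, and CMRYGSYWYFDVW of skin replicate 2 was in spleen and lymph node replicate 2 and nowhere else. The other 2 crossed numbers: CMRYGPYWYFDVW of skin replicate 2 was in spleen replicate 2, lymph node replicates 2 and 3 and the control, and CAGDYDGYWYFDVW of skin replicate 2 was in spleen replicates 2 and 4, lymph node replicate 4 and the control. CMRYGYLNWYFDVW and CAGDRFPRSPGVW were in no spleen, lymph node or control library.

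By nucleotide junction, most IGHV12-3 clonotypes shared between a spleen and a lymph node replicate were shared within a number. Pairs of the same number shared 0, 26, 3 and 6 clonotypes, and pairs of different numbers 0 to 2. The 26 shared in replicate 2 were 26% of the IGHV12-3 clonotypes of that lymph node and 3.70% of those of that spleen. One of them, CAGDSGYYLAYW, had 446 copies in spleen and 132 in lymph node. For IGHV11-2, same-number pairs shared 10, 21, 10 and 26, and other pairs 3 to 11, with the 3 nucleotide forms found in all 8 replicates among them, so that the ranges overlapped. The labels do not state that a number marks 1 mouse.

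Across the 8 spleen and lymph node replicates, the V genes whose clonotype levels ran most like those of IGHV11-2 were IGHV1-26 (Pearson r 0.943), IGHV1-36 (0.800) and IGHV1-87 (0.782), on the log2 scale after scaling to library size. For IGHV12-3 they were IGHV7-4 (0.651), IGHV5-12 (0.563) and IGHV6-3 (0.547). The points share tissue, library and depth, so these are descriptions.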

How the data were processed

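Heavy-chain libraries were made by a commercial service with constant-region primers carrying molecular identifiers, per the labels' protocols. The deposited tables hold, per library, each sequence, its V gene, J gene and isotype, junction and a whole-number count. They also hold V mismatches and aligned length, a measurement other than a count in the deposited columns. The build was mm10, per the submitters' processing notes, and the aligner is not stated in the sources used here. Copies of the 2 technical libraries of a replicate were added, and 0 columns of other samples were left out.

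The isotype of a clonotype was the one with most copies, and its mismatches were weighted by copies. Clonotypes per V gene of the 12 tissue replicates were tested with edgeR 4.0.16 (TMM, filterByExpr, quasi-likelihood F test, Benjamini-Hochberg) in R 4.3.3, with DESeq2 1.42.0 as an alternative. On simulated counts with a fixed dispersion, 20 of 91 genes drawn at random were changed 4-fold. Of these edgeR recovered 50% (3 false calls) for skin against spleen and 60% (0) for skin against lymph node. For spleen against lymph node it recovered 100% (0). These rates are over genes of all abundances and do not measure power for IGHV11-2 or IGHV12-3. IgM, IGHJ1 and mismatch values were compared by exact permutation where every spleen and lymph node replicate held at least 10 clonotypes of the gene, which only IGHV11-2 met, and adjusted over the 3 measures. Other values used Python 3.11.15, pandas 2.3.3, numpy 2.4.6 and scipy 1.17.1. The genes, junctions and lists were chosen with earlier results of these data known. Named were the 3 genes, 5 V genes of natural antibody repertoires, the 3 most like V genes for IGHV11-2 and IGHV12-3, the 3 junctions of each gene in most tissue replicates, every skin clonotype and the largest clonotypes. The fourth IGHV11-2 junction, the 10/G4 form and other single junctions were added after their values were seen.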

Additional observations from a re-analysis of the deposited data

Results flagged for a closer look

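In 13 of 60 sets of 4 replicates, 1 replicate lay far from the other 3 by Dixon's criterion. The criterion's chance rate of about 1 of 20 sets holds for normally distributed values only. Many values here are bounded percentages, and any set with 3 equal values and 1 different value meets the criterion, as in several IgA sets below. The count of 13 thus cannot be set against that rate, and no excess over chance is drawn from it. The sets share replicates and are not independent.

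For IGHV11-2, IgA made up 71.5% of copies in spleen replicate 2, where other V genes had 30.3%. Lymph node replicate 4 stood apart in 3 values, with IgA at 7.95% of copies and 4.42% of clonotypes against 0% in the other 3, and IgM at 77.7% of copies. Other V genes also had their highest lymph node IgA share of copies in replicate 4, at 5.26% against 1.08% to 1.80%, but not of clonotypes (0.441%). IGHJ1 reached 72.1% of clonotypes in spleen replicate 1, from 43 clonotypes.

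For IGHV12-3, the share of copies in lymph node replicate 2 was 0.185%. IgA made up 5.12% of clonotypes and 30.7% of copies in spleen replicate 2, and 3% of clonotypes and 3.32% of copies in lymph node replicate 2, with 0% in the other 3 replicates of each tissue. In spleen replicate 2 other V genes had IgA at 6.97% of clonotypes and 30.3% of copies, so that replicate was near its library and the 0% of the others stood apart from theirs. The other 3 spleen replicates held 3, 156 and 38 IGHV12-3 clonotypes.

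For IGHV11-1, the share of copies in spleen replicate 4 was 0.0202%, and lymph node replicate 4 held 4.5 copies per clonotype. No IgM clonotype (0%) was found in spleen replicate 1, which held 2 clonotypes.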

How the results depend on the processing

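Over 9 results and 171 alternatives, 147 kept direction and side of the threshold, 21 reversed, 3 passed it newly and 0 lost it. IGHV11-2 passed for skin against spleen under DESeq2 (2.63) and for skin against lymph node under DESeq2 (2.56), and reversed with copies in place of clonotypes (-0.86 and -1.17), as did IGHV12-3 for skin against spleen (-0.33). The cause was not tested. For spleen against lymph node, IGHV11-2 lay near 0 and turned positive with no filter (0.042), only those 2 tissues (0.021), clonotypes of at least 2 copies (0.35), amino acid clonotypes (0.034), lineages (0.39), equal depth (0.25) and without spleen and lymph node replicate 2 (0.11, chosen after seeing the data). The IGHV11-2 IgM difference reversed at equal depth (-2.17) and with copies as weights (-21.0), IGHJ1 with clonotypes of at least 2 copies (3.34), and mismatches with those (-0.0338) and at equal depth (-0.0779).

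Leaving out 1 replicate gave IGHV11-2 differences of 1.34 to 2.60 for skin against spleen, 1.31 to 2.56 for skin against lymph node and -0.35 to 0.42 for spleen against lymph node. For IGHV12-3 they were 0.25 to 2.09, 1.27 to 3.09 and -0.071 to 2.34. The IGHV11-2 IgM difference was -0.534 to 3.86, IGHJ1 -7.05 to -0.752 and mismatches -0.00136 to 0.0667.

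With a replicate block, the IGHV11-2 differences were 2.21, 2.04 and -0.17 and those of IGHV12-3 1.45, 2.20 and 0.75, with no call changed. Exact sign-flip p-values with the block were 0.25 for IgM, 0.625 for IGHJ1 and 0.5 for mismatches, where 0.125 is the smallest possible. Same-number correlations of V gene deviations were 0.256, 0.175, 0.00763 and -0.173 for spleen and lymph node, so the numbers were not treated as pairing. Most shared IGHV12-3 clonotypes were nevertheless shared within a number, as given above, so the values with the block stand beside the unpaired ones. Calls for the 3 comparisons were 7, 0 and 20 of 91 genes, against 1, 0 and 11 with the block. The other fits tested other numbers of genes, so their counts are not directly comparable. DESeq2 called 48, 37 and 34 of 164, 151 and 122 genes. With copies 13, 13 and 0 of 97 genes were called, and with lineages 0, 0 and 24 of 92. With only 2 tissues the calls were 0, 0 and 38, with 78 genes tested for skin against spleen.

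With only 2 tissues, IGHV12-3 could not be fitted in the skin comparisons, and IGHV11-1 had no value under the filter. DESeq2 called IGHV11-1 higher in skin (3.69 and 3.26, adjusted p = 0.00883 and 0.0328) although skin held 0 of its clonotypes. In skin, a count of 0 in a replicate allows a share of clonotypes of up to 0.857% to 1.09%.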

Other observations

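The allele calls of IGHV11-2 and IGHV12-3 differed between the control and the tissues. In the tissues, 1979 IGHV11-2 sequences were called allele 01 and 23 allele 02, while all 1463 control sequences were called 02. For IGHV12-3, all 2130 tissue sequences were called 01 and all 109 control sequences 02. For IGHV11-1, all 95 tissue sequences were called 01, and the control had 4 called 01 and 7 called 02. The strain of the control is not stated. The nucleotide junctions of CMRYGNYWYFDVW, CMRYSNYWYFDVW and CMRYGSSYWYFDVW shown in the report were thus present with either allele call.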
